A study of Mus musculus with 15 samples.

Results

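The comparison set 3 RNA-seq libraries of macrophages from visceral fat against 3 libraries labelled blood monocytes. The macrophages had been sorted as CX3CR1-high CCR2-high and are called CCR2-high here. The mice of both groups were C57BL/6 in the steady state. The 6 libraries were chosen by their labels, and they are part of a series of 15 libraries in 5 groups of 3. Another steady-state group, the CX3CR1-low CCR2-low macrophages of the same fat (CCR2-low here, 3 libraries), entered the same fit and is given beside some results. The other 6 libraries are CCR2-low macrophages from mice with or without myocardial infarction and were not used. No transgene or drug is given for the 3 steady-state groups in the sources used here. The sources used here also do not give the age or sex of the mice, the gates of the sort, or whether animals were pooled. Nothing in the labels says that the libraries of a group came from separate animals, so p-values measure the spread between these libraries, which may be technical.

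Classical monocytes are made in the bone marrow, leave it through the chemokine receptor CCR2 and circulate before some of them enter tissues, where they can become macrophages. Macrophages and dendritic cells show peptides to CD4 T cells on MHC class II molecules, whose genes are switched on by the transactivator CIITA through conserved X and Y boxes in their promoters. The enzymes of primary granules, among them myeloperoxidase and neutrophil elastase, are transcribed mainly in immature myeloid cells of the marrow, and their transcripts decline as the cells mature. In fat, macrophages take up lipid and dying cells and release chemokines and cytokines.

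Values were TPM (transcripts per 1e6 transcripts), which the authors deposited for 28347 genes, and each library's column summed to 1e6 TPM. A gene was tested if it had at least 1 TPM in at least 3 of the 9 steady-state libraries, which left 15467 genes. The test was limma on log2(TPM + 1), so a log2 fold change understates the change of a gene with low values. A gene was called at an adjusted p below 0.05, with Benjamini-Hochberg adjustment over all genes tested. No source used here gives the depth of the libraries. In the low values, 1 read in a transcript of 2 kb was worth 0.0205 to 0.0295 TPM, so levels under about 0.1 TPM rest on a few reads.

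Most of the transcriptome differed between the groups. Of the 15467 genes, 12038 were called, which is 77.8%, with 4106 (26.5%) higher and 7932 (51.3%) lower in the CCR2-high libraries. A size limit was added, since a call alone is common here, and 2295 genes (14.8%) were called and differed at least 4-fold. Of these, 1182 (7.64%) were higher and 1113 (7.2%) lower. At 10-fold or more there were 553 higher and 219 lower genes. The libraries of the groups did not overlap for 12374 genes (80%). Pearson correlations of log2(TPM + 1) across genes, which are not independent replicates, were 0.983 to 0.987 within the CCR2-high libraries, 0.988 to 0.994 within the labelled monocytes and 0.71 to 0.74 between those groups. CCR2-high and CCR2-low macrophages correlated at 0.954 to 0.970.

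The scaling moved the balance of the calls. The median log2 fold change of all genes was -0.42 with TPM as deposited and -0.07 after trimmed mean of M values (TMM) scaling, and the median over genes of each gene's own shift was 0.37. The 10 most abundant genes held 14.04 to 16.99% of all TPM in the CCR2-high libraries and 8.44 to 9.13% in the labelled monocytes. The part of these shares in the shift was not tested. With TMM scaling, 5470 genes were higher and 6161 lower, so 47% of the calls were higher in place of 34.1%. At 4-fold the split was 1425 higher and 722 lower, or 66.4% higher in place of 51.5%. The sign of the change flipped for 253 called genes, and 1 of the 2295 genes past 4-fold was not called in the same direction. The direction of decreases of about the size of that shift therefore depended on the scaling.

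**Figure D1:**
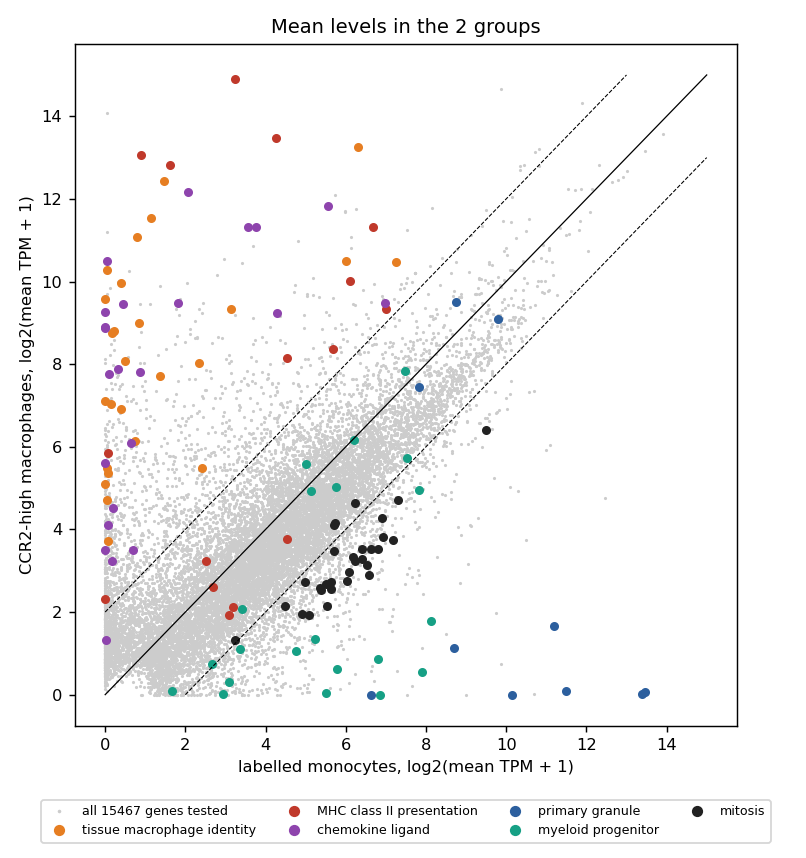
Mean levels of all 15467 genes tested, as log2(mean TPM + 1), in the labelled monocyte libraries (x axis) and the CCR2-high libraries (y axis), 3 libraries each, with members of 6 gene lists in colour. The solid line marks equal levels and the dashed lines 4-fold differences; class II, chemokine and macrophage genes lie mainly above the upper dashed line, most primary granule and mitosis genes below the lower one.

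The labels were checked against defining markers first. The CCR2-high libraries carried macrophage transcripts. Adgre1, which encodes the macrophage surface protein F4/80 and is listed as Emr1, was at 675, 685 and 590 TPM, against 9.44, 6.64 and 7.21 TPM in the labelled monocytes. Csf1r, the receptor of the macrophage growth factor CSF1, was at 1284, 1621 and 1341 against 190, 121 and 141 TPM.

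The libraries labelled blood monocytes held some monocyte markers at high levels and others at low levels. Ly6c2, a surface marker of classical monocytes, was at 5545, 5127 and 6280 TPM there. By contrast Cd14, the co-receptor for bacterial lipopolysaccharide, was at 12, 11.6 and 12.3 TPM. The proteoglycan gene Vcan, another marker of classical monocytes, was at 0.0695, 0.0226 and 0.0607 TPM and did not pass the filter. Transcripts of immature myeloid cells were among the most abundant. Mpo, myeloperoxidase, was at 12818, 9702 and 11344 TPM and ranked 2 to 3 among all genes. Kit, the stem cell factor receptor of progenitors and mast cells, was at 147, 85 and 97.3 TPM. The measured transcripts thus go against a plain reading of that label, and the group is called labelled monocytes throughout. In bulk libraries such as these, fewer cells of a type and less RNA per cell cannot be told apart.

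Transcripts of sex-linked genes also separated the groups. Xist, the RNA of the inactive X chromosome, was at 22.3, 20.5 and 15.4 TPM in the labelled monocytes and was listed at 0 in all 3 CCR2-high libraries. Ddx3y, a helicase gene of the Y chromosome, was at 0.0127, 0.0117 and 0.0105 TPM in the labelled monocytes and at 54.6, 59.3 and 61.1 TPM in the CCR2-high libraries. Of 9 Y-chromosome genes tested, 7 were at least 4-fold higher in the CCR2-high libraries, against 7.64% of all genes. The CCR2-low libraries also had Xist at 0, with Ddx3y at a mean of 52 TPM. The sex shown by these transcripts, the tissue, the cell type and whatever handling differed between the groups cannot be told apart in any result below.

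The transcripts of the sort markers were higher in the CCR2-high libraries. Ccr2 (ENSMUSG00000049103, mm10 chromosome 9, 124101950 to 124113557, plus strand) was at 436, 471 and 446 TPM, against 65.8, 54.8 and 56.2 TPM in the labelled monocytes. Every CCR2-high library lay above every labelled monocyte library, with a log2 fold change of 2.92 (SE 0.11, adjusted p = 1.79e-09, limma). The fractalkine receptor gene Cx3cr1 was at 52.6, 70.3 and 78.1 against 20.6, 12.5 and 12.7 TPM, again with no overlap, which held for 80% of all genes. Its log2 fold change was 2.08 (SE 0.21, adjusted p = 4.16e-06, limma). By their labels the macrophages had been sorted as high for CX3CR1 and CCR2, so these levels are not independent of the sort. In CCR2-low libraries Ccr2 averaged 76.1 TPM, nearer to the labelled monocytes than to CCR2-high macrophages.

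**Figure D2:**
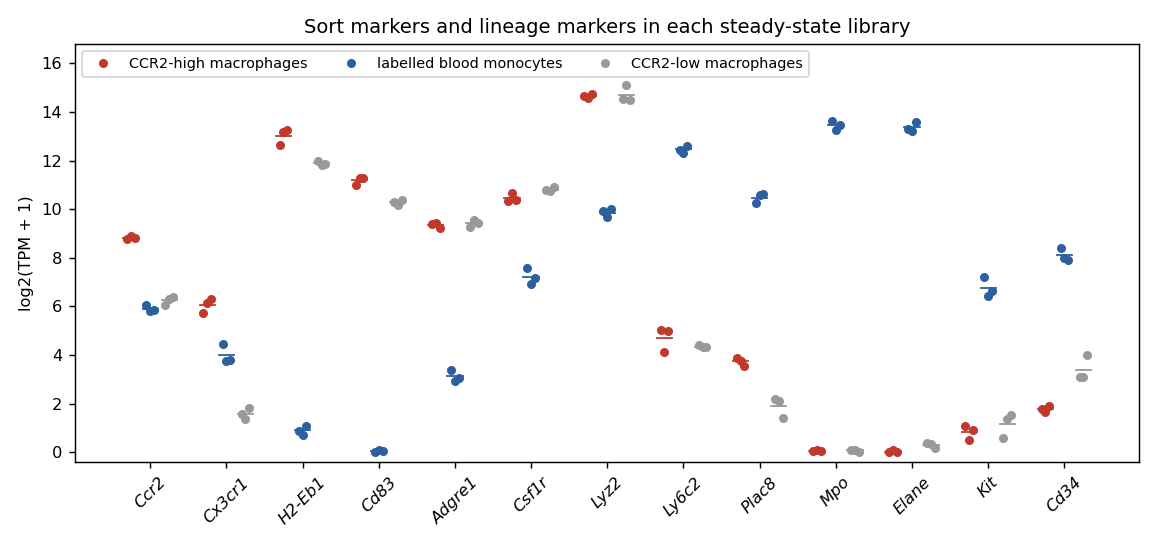
Levels of 13 sort and lineage markers in each of the 9 steady-state libraries, as log2(TPM + 1); points are libraries and short bars the means of 3. Ccr2, H2-Eb1, Cd83, Adgre1, Csf1r and Lyz2 were higher in CCR2-high macrophages than in the labelled monocytes, and Ly6c2, Plac8, Mpo, Elane, Kit and Cd34 were lower.

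Genes of MHC class II presentation gave some of the largest differences. H2-Eb1, the beta chain of the I-E molecule (ENSMUSG00000060586, chromosome 17, 34305867 to 34316674, plus strand), was at 6384, 9147 and 9945 TPM in the CCR2-high libraries and at 0.854, 0.647 and 1.12 TPM in the labelled monocytes. The groups were far apart, and the CCR2-high libraries placed H2-Eb1 between rank 7 and rank 18 of all genes. Its log2 fold change was 12.13 (SE 0.16, adjusted p = 7.54e-13, limma). Cd74, the invariant chain that guards the class II groove, was at 23254, 34035 and 34980 against 5.87, 8.73 and 10.9 TPM and ranked 1 to 2 in the CCR2-high libraries. Its log2 fold change was 11.67 (adjusted p = 4.95e-12).

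Promoters of class II genes are shown because the same genes moved together. The windows are from RefSeq (GRCm38.p6) and run from 250 bases before to 50 bases after each annotated start, 300 bases in all. Of 5 class II genes looked up, 4 had an entry. The search was for GNAACT (X-box type) followed on the same strand by GATTGG (Y-box type, a CCAAT box read on the other strand), with 15 to 35 bases between them, on both strands. These letters were chosen with these sequences in view. The pair was found in 3 of the 4 genes and in 100 of 32851 windows of the table (0.304%). Capitals mark the pair. H2-Eb1 is chr17:34305617-34305916 on the plus strand, with the first motif 91 bases before the start and 25 bases between the motifs. H2-Aa, the alpha chain of the I-A molecule, is chr17:34287774-34288073 on the minus strand, with 81 and 26 bases. H2-DMb1, a chain of the peptide exchange factor H2-DM, is chr17:34152941-34153240 on the plus strand, with 94 and 26 bases.
H2-Eb1: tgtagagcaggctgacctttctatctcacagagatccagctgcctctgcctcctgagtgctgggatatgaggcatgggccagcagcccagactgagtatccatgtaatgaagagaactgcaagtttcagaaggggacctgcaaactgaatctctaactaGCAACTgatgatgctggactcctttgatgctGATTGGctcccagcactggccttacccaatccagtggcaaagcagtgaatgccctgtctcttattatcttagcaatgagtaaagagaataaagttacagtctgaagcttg
H2-Aa: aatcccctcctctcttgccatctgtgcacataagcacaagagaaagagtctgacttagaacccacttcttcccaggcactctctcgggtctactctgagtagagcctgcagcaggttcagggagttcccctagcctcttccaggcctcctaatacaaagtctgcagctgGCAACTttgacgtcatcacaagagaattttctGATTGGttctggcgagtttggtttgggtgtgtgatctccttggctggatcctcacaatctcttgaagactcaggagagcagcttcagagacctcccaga
H2-DMb1: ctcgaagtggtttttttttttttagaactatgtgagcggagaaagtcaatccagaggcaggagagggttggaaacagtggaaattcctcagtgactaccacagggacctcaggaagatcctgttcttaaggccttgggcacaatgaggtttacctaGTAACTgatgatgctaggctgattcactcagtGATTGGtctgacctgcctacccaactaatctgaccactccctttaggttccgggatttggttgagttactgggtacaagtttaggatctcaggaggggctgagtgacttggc

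These genes differed in level. H2-Aa was at 5720, 7801 and 8180 against 1.07, 1.89 and 3.18 TPM, a log2 fold change of 11.26 (adjusted p = 1.04e-11). H2-DMb1 was at 840, 1084 and 1170 TPM in the CCR2-high libraries. The labelled monocytes still had H2-DMb1 at 70.7, 60.5 and 70.8 TPM, and its log2 fold change was 3.91 (adjusted p = 5.41e-10). H2-DMa, the partner chain, held no such pair in either of its windows. It was at 518, 689 and 727 against 139, 116 and 126 TPM, a log2 fold change of 2.32. A match here is a description of letters and not a site or a cause.

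Ciita, the class II transactivator itself, was at 44.4, 63.8 and 62.4 TPM in CCR2-high macrophages. In the labelled monocytes it was at 0.0788, 0.0415 and 0.0371 TPM, and the log2 fold change was 5.76 (SE 0.14, adjusted p = 5.94e-11). The factors that bind the X box with CIITA went another way, as Rfx5 (2.65, 4.2 and 3.1 against 9.59, 6.74 and 7.92 TPM) and Rfxap (14.4, 11.8 and 12 against 22.3, 21.2 and 22.9 TPM) were lower in CCR2-high libraries. Their log2 fold changes were -1.08 and -0.76. Rfxank was at 3.96, 6 and 5.22 against 6.11, 5.05 and 5.15 TPM and was not called (adjusted p = 0.567).

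Of the 16 genes of the class II list, which were all tested, 12 were higher, 3 lower and 1 not called, and 11 were at least 4-fold higher, against 26.5% and 7.64% of all genes tested. The list's median log2 fold change was 3.15, beside -0.42 for all genes. Counts and medians of lists describe the tested members and support nothing by themselves, since a gene that passed the filter through one group alone had to differ. H2-Ab1, the beta chain of I-A, was at 8571, 12059 and 13241 against 19, 17.6 and 17.3 TPM. Ctss, cathepsin S, which trims the invariant chain, was at 2820, 2126 and 2731 against 115, 96.3 and 94.6 TPM. H2-Eb2 was at 2.84, 3.62 and 5.48 TPM and was listed at 0 in the labelled monocytes. The other lower gene was H2-Oa, a chain of the exchange inhibitor H2-DO, at 2.42, 2.53 and 3.52 against 8.46, 6.92 and 7.05 TPM. Reads of class II paralogs may be shared between copies, so single H2 values carry that uncertainty.

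Class II levels also differed within the macrophage compartment. The summed TPM of the list was 48774, 67630 and 71726 in the CCR2-high libraries, 30513 to 33982 in the CCR2-low libraries and 421 to 471 in the labelled monocytes. CCR2-high replicate 1 was the lowest of its group. Relative to CCR2-low, the CCR2-high libraries had H2-Eb1 1.14 log2 units higher (adjusted p = 0.00101) and Ciita 0.98 (adjusted p = 0.00125). These contrasts used the same CCR2-high libraries as the comparison with labelled monocytes.

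Co-stimulatory genes were mostly higher as well. Cd83, a surface protein of mature antigen-presenting cells that stabilises class II (ENSMUSG00000015396, chromosome 13, 43784775 to 43803132, plus strand), was at 2028, 2469 and 2507 TPM in CCR2-high macrophages. In the labelled monocytes it was at 0, 0.0508 and 0.0228 TPM, worth 0, 2 and 1 reads. The log2 fold change was 11.15 (SE 0.10, adjusted p = 3.79e-14, limma), and with so few reads in 1 group its size depends on the pseudocount, being 14.21 with 0.1 and 8.86 with 5. CCR2-low libraries averaged 1245 TPM.

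Of 19 listed co-stimulatory and co-inhibitory genes 18 were tested, and 15 were higher and 3 lower, against 26.5% and 51.3% of all genes. At least 4-fold higher were 11, against 7.64%, and the median log2 fold change was 2.54. Cd86, a CD28 ligand, was at 102, 112 and 105 against 1.07, 1.46 and 0.999 TPM. Cd80, the other CD28 ligand, was at 16.4, 19 and 17.7 against 0.278, 0.544 and 0.115 TPM. Cd40, which receives help from T cells, was at 44.1, 42.6 and 42.5 against 0.243, 0.048 and 0.286 TPM. None of the 3 genes overlapped between the groups, which held for 80% of all genes. Their log2 fold changes were 5.63, 3.84 and 5.21.

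Ligands with other receptors varied more. Tnfsf9, the ligand of 4-1BB, was at 747, 571 and 623 against 4.95, 3.36 and 3.77 TPM, a log2 fold change of 7.01. Cd274, which encodes the inhibitory ligand PD-L1, was at 30.3, 19 and 29.5 against 4.03, 3.67 and 3.46 TPM (2.50). The lower genes were Lgals9 (114, 133 and 121 against 244, 210 and 213 TPM), Tnfrsf14, a receptor that binds BTLA (5.34, 5.69 and 4.98 against 10.7, 10.4 and 10.5 TPM), and Cd47, which restrains phagocytosis, at 127, 124 and 128 against 237, 206 and 204 TPM. Their log2 fold changes were -0.85, -0.87 and -0.76. Tnfsf4 did not pass the filter.

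**Figure D3:**
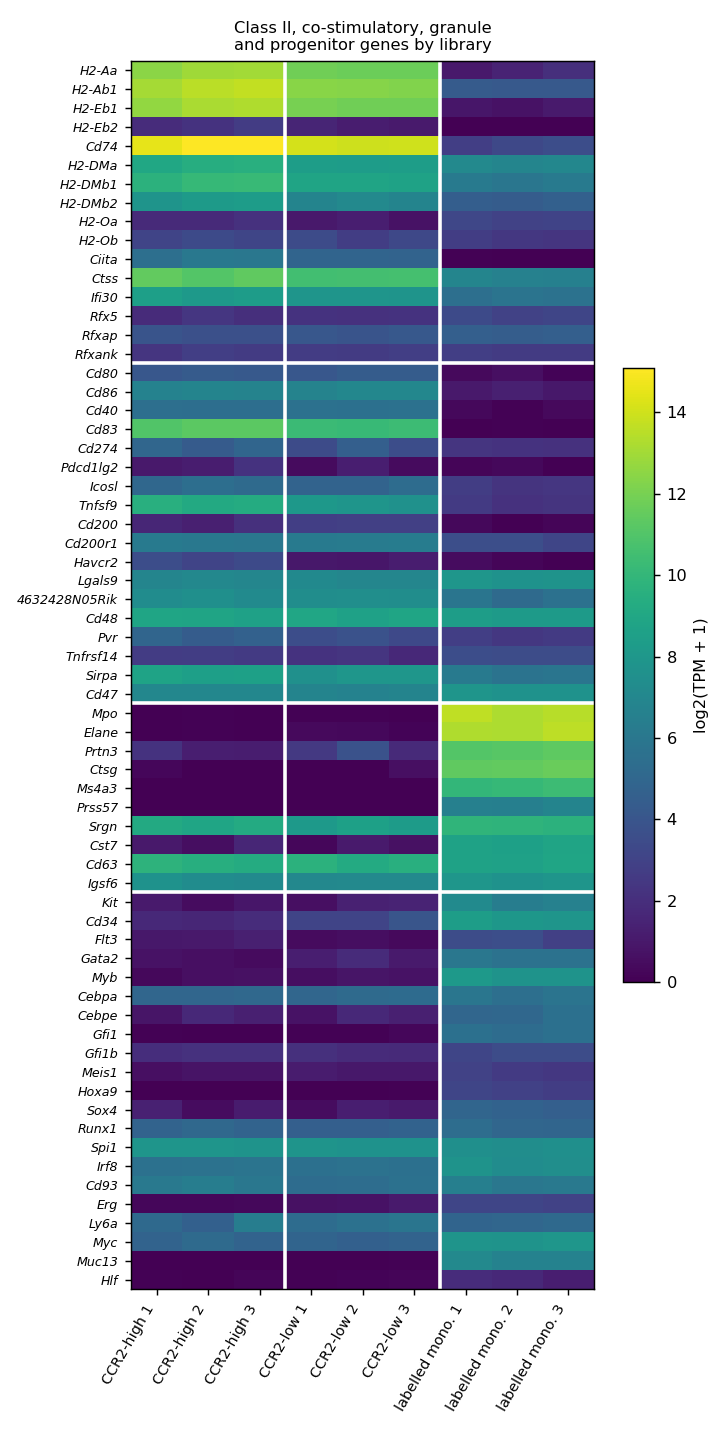
Levels of the tested genes of the class II, co-stimulatory, primary granule and progenitor lists, from top to bottom, in each of the 9 steady-state libraries as log2(TPM + 1). The upper blocks are bright in both macrophage groups and the lower blocks mainly in the labelled monocytes, while Srgn, Cd63, Spi1 and Runx1 were well above 0 in every library.

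Primary granule genes had the lowest median of the 39 lists read. Mpo (ENSMUSG00000009350, chromosome 11, 87793581 to 87804413, plus strand) was at 0.0241, 0.0562 and 0.0383 TPM in the CCR2-high libraries, levels that rest on a few reads, beside the values of 9702 to 12818 TPM given above. The log2 fold change was -13.40 (SE 0.11, adjusted p = 3.79e-14, limma). With a pseudocount of 0.1 it was -16.30 and with 5 it was -11.12. Elane, neutrophil elastase, was at 10042, 9607 and 12367 TPM in the labelled monocytes and at 0, 0.0523 and 0 TPM in the CCR2-high libraries, where the middle library's value is 1 read.

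Promoters of Mpo and of 3 granule protease genes are shown because these transcripts were among the most abundant of the labelled monocytes. The search was for GGAAGT, the core of sites of ETS factors such as PU.1, on both strands, again chosen with sequences in view. It was found in each of 5 genes searched of the primary granule list (the other was Ms4a3), and in 7809 of the 32851 windows (23.8%), so it is common. Capitals mark it. The match lay 222 bases before the start in Mpo (chr11:87793534-87793833, plus strand) and 83 in Elane (chr10:79886062-79886361, plus strand). It lay 93 bases before the start in Prtn3 (chr10:79879417-79879716, plus strand), which encodes proteinase 3, and 205 in Ctsg (chr14:56102525-56102824, minus strand), which encodes cathepsin G.
Mpo: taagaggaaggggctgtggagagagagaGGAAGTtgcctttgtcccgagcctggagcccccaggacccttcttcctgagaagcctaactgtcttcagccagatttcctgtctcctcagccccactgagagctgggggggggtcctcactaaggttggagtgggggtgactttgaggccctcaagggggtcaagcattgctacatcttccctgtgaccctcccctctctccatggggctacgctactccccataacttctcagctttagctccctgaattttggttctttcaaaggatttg
Elane: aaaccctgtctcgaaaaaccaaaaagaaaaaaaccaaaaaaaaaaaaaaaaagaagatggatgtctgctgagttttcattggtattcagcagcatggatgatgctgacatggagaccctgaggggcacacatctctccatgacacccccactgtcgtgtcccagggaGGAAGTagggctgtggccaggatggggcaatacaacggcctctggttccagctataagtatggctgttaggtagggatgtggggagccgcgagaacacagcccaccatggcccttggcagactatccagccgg
Prtn3: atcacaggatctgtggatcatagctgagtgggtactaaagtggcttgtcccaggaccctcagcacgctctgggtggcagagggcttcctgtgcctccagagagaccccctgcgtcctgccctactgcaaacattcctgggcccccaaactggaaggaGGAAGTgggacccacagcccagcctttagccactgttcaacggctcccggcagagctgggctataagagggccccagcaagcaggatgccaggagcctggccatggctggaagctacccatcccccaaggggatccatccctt
Ctsg: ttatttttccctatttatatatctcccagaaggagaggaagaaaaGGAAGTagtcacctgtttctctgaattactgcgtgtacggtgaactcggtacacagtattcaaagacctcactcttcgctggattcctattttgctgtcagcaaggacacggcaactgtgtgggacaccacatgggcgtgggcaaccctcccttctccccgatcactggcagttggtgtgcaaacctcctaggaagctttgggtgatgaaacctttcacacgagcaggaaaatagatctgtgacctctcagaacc

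Prtn3 was at 2106, 2331 and 2640 TPM in the labelled monocytes. It was at 3.69, 1.42 and 1.34 TPM in the CCR2-high libraries, above the level of a few reads, a log2 fold change of -9.62 (adjusted p = 5.19e-09). Ctsg was at 2737, 2791 and 3148 against 0.206, 0 and 0 TPM. Ms4a3, a marker of granulocyte and monocyte progenitors, was at 1029, 1090 and 1289 TPM, and the serine protease gene Prss57 at 94, 90.9 and 110 TPM. Both were listed at 0 in every CCR2-high and every CCR2-low library. The factor PU.1 is encoded by Spi1, which was at 231, 233 and 216 against 182, 167 and 186 TPM, a log2 fold change of 0.35 (adjusted p = 0.00313).

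The primary granule list holds 10 genes, among them the progenitor marker Ms4a3. Of the 10 genes 9 were lower and 1 higher, against 51.3% and 26.5% of all genes, and 7 were at least 4-fold lower, against 7.2%. The median log2 fold change was -8.62. Cst7, the protease inhibitor cystatin F, was at 1.05, 0.488 and 2.04 against 410, 382 and 447 TPM. The granule proteoglycan gene Srgn was at 585, 471 and 590 against 936, 897 and 847 TPM (log2 fold change -0.71), and after TMM scaling it was not called (-0.30, adjusted p = 0.0831). Igsf6 (206, 162 and 151 against 244, 203 and 232 TPM) changed sign with TMM scaling, from -0.39 to 0.02, and without CCR2-high replicate 3 it was not called (adjusted p = 0.0563). Cd63, a tetraspanin of granules and lysosomes, was the higher one, at 873, 697 and 622 against 411, 399 and 476 TPM.

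Genes of later granules moved in both directions. Of 13 listed 12 were tested, and 7 were lower, 2 higher and 3 not called, so the share of lower calls (51.3% of all genes) sets them little apart. Each of the 7 was at least 4-fold lower, against 7.2% of all genes. S100a8, a calcium-binding protein of neutrophils and monocytes, was at 10.6, 1.96 and 3.79 against 357, 423 and 604 TPM, a log2 fold change of -6.36 (adjusted p = 2.42e-07). Ngp, a granule protein of neutrophil precursors, was at 0.0339, 0.0791 and 0.0359 against 54.6, 15.2 and 29.3 TPM (-4.84). Mmp9, gelatinase B, went up instead, at 95.5, 161 and 164 against 2.87, 1.11 and 1.64 TPM (5.62). Chi3l3, which encodes the chitinase-like protein Ym1, was at 59, 35.5 and 54.3 against 77.1, 53 and 90 TPM and was not called in the 9-library fit (adjusted p = 0.477). It was called with only the 6 libraries (adjusted p = 0.0333).

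Progenitor genes were lower in CCR2-high macrophages. Of 22 listed genes 21 were tested, 17 were lower, 1 higher and 3 not called, and 12 were at least 4-fold lower, against 51.3% of all genes lower and 7.2% at 4-fold. The median log2 fold change was -2.80. Myb, a transcription factor of immature blood cells, was at 0.277, 0.521 and 0.613 against 281, 213 and 218 TPM, a log2 fold change of -7.34 (SE 0.16, adjusted p = 1.98e-11). Kit was at 1.1, 0.429 and 0.906 TPM, a log2 fold change of -5.91. Cd34, a surface protein of progenitors and endothelium, was at 2.39, 2.11 and 2.75 against 336, 257 and 238 TPM (-6.33).

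Transcription factors of the list did not all behave alike. Gata2, used in stem cells, mast cells and basophils, was at 0.701, 0.546 and 0.365 against 61.7, 50.2 and 50.1 TPM. Gfi1, a repressor in granulocyte precursors, was at 0.0508, 0 and 0.0135 against 46.9, 39.6 and 46.9 TPM. Irf8, which directs monocyte and dendritic cell development, was at 49, 49.8 and 55.9 against 215, 160 and 177 TPM (-1.81). Cebpa, needed for granulocyte and monocyte precursors, was at 30.8, 30.1 and 33.9 against 60.5, 45.1 and 54.4 TPM (-0.73). Runx1 was at 27.5, 34 and 27.1 against 41.1, 31 and 29.7 TPM, so its groups overlapped and it was not called. Cd93 and Ly6a were not called either. With TMM scaling Cd93 turned from -0.03 to 0.38 and was called (adjusted p = 0.0138), and Ly6a was called without CCR2-high replicate 2 (adjusted p = 0.0404). The mucin gene Muc13 was at 139, 103 and 103 TPM in the labelled monocytes and listed at 0 in the CCR2-high libraries.

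Genes of cell division were lower as groups. All 30 tested genes of DNA replication and S phase were lower, 27 of them at least 4-fold, with a median log2 fold change of -2.86. All 30 tested mitosis genes were lower as well, 26 of them at least 4-fold, with a median of -2.98. Of all genes 51.3% were lower and 7.2% at least 4-fold lower. The medians with TMM scaling were -2.47 and -2.61, and each gene kept its call. Mcm6, a subunit of the replicative helicase, was at 77.9, 67.5 and 51.1 against 636, 464 and 490 TPM (log2 fold change -3.00, adjusted p = 4.35e-08). Cdk1, the kinase that drives entry into mitosis, was at 10.3, 8.61 and 6.1 against 73.9, 73.4 and 75.9 TPM (-3.04). Stmn1, a microtubule regulator, was at 106, 75.7 and 70.3 against 724, 744 and 711 TPM (-3.12).

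The CCR2-high libraries were not at 0 for these genes. Summed TPM of the mitosis list was 452, 332 and 263 in CCR2-high, 145 to 210 in CCR2-low and 2609 to 2882 in labelled monocyte libraries. Against CCR2-low, 22 of the 30 mitosis and 19 of the 30 S phase genes were higher in CCR2-high libraries, where 8.93% of all genes were called higher. Cdk1 was 1.07 log2 units higher (adjusted p = 0.00161). The number of genes called in that contrast, 2733, fell to 1481 without CCR2-high replicate 1, which had the highest sum of the mitosis list, to 1800 without CCR2-high replicate 3, to 1580 without CCR2-low replicate 1 and to 1612 without CCR2-low replicate 3.

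Ribosome biogenesis genes, which serve growth, were lower for all 30 tested, and 14 of them were at least 4-fold lower (median -1.98), beside the same 51.3% and 7.2% of all genes. Npm1, a nucleolar chaperone, was at 142, 127 and 116 against 571, 576 and 478 TPM. Dkc1, the pseudouridine synthase of ribosomal RNA, was at 11.8, 12.1 and 11.4 against 149, 113 and 113 TPM. Transcripts of cytosolic ribosomal proteins were lower by less, with a median of -1.31 and none of the 40 at 4-fold. After TMM scaling 38 of the 40 stayed lower at a median of -0.90, beside 6161 of all 15467 genes. Rps29 changed from -0.36 to 0.05, and it was not called when CCR2-high replicate 1, 2 or 3 or labelled monocyte replicate 2 or 3 was left out (adjusted p = 0.0685, 0.132, 0.0609, 0.176 and 0.145). Of 13 mitochondrially encoded genes 1 was higher and 6 lower, beside 26.5% and 51.3% of all genes. Their median was -0.24, which became 0.17 with TMM scaling, so no direction is given for them.

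**Figure D4:**
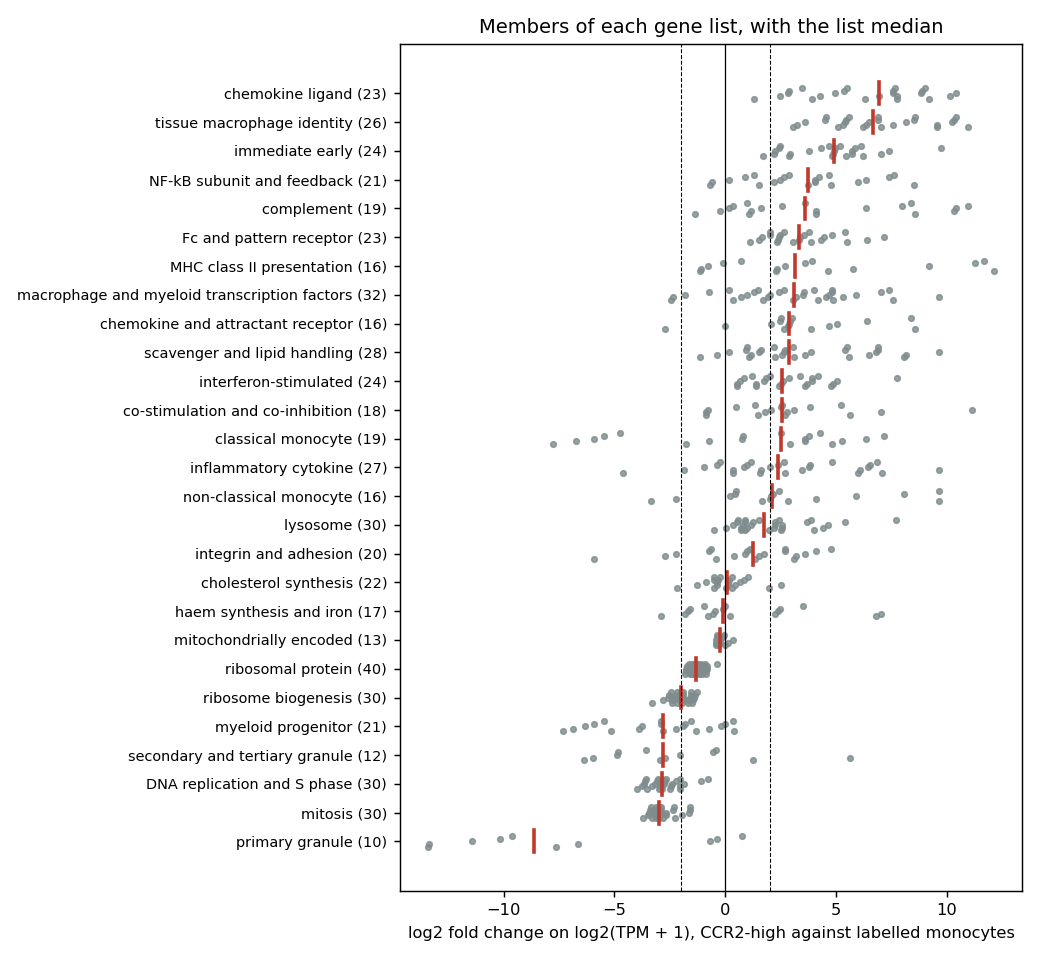
Log2 fold changes of the tested members of 27 gene lists, CCR2-high against labelled monocyte libraries on log2(TPM + 1), with 3 libraries a group; each point is a gene, the number tested is in brackets and the red bar is the list's median. Dashed lines mark 4-fold; the medians run from -8.62 for primary granules to 6.93 for chemokine ligands.

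Monocyte genes split in their direction. Of 20 classical monocyte genes 19 were tested, and 12 were higher and 7 lower in the CCR2-high libraries, with 10 and 5 at 4-fold, beside 7.64% and 7.2% of all genes. The lower ones included Ly6c2, at 32, 16.3 and 30.8 TPM (log2 fold change -7.75, adjusted p = 1.05e-10), and Plac8, a small cysteine-rich protein of myeloid cells, at 13.9, 12.5 and 10.8 against 1206, 1538 and 1562 TPM (-6.74). Haptoglobin (Hp) was at 18.2, 13 and 15.9 against 433, 411 and 487 TPM (-4.74). Ly6c1, the close copy of Ly6c2, was at 22.1, 18.8 and 47.1 against 1212, 1172 and 1407 TPM (-5.49), and reads may be shared between these genes.

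Among the higher ones were genes that macrophages also use. Lyz2, lysozyme, was at 26223, 24622 and 27155 against 961, 810 and 1036 TPM (log2 fold change 4.80, adjusted p = 1.07e-09). Cd14 was at 1797, 1605 and 2153 TPM (7.15). Fn1, fibronectin, was at 414, 351 and 442 against 4.8, 3.34 and 3.66 TPM (6.36). Ms4a4c was at 38.9, 36.3 and 41.6 against 25.1, 21.1 and 20.9 TPM (0.78), while CCR2-low libraries averaged 4.99 TPM. F13a1, the coagulation factor chain carried by monocytes and resident macrophages, was at 1257, 1707 and 1099 against 1011, 688 and 718 TPM (0.75). Mgst1, a glutathione transferase, was at 54.2, 43.6 and 47.8 against 75.9, 78.2 and 87.5 TPM (-0.72) and was not called with TMM scaling (-0.32, adjusted p = 0.0539).

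Of the 16 non-classical monocyte genes 13 were higher (26.5% of all genes), 2 lower and 1 not called, with a median of 2.13. Nr4a1, the nuclear receptor that non-classical monocytes need and that stimulated macrophages also induce, was at 1306, 1028 and 1315 against 0.669, 0.506 and 0.375 TPM (log2 fold change 9.64). Cd36, a fatty acid and scavenger receptor, was at 921, 885 and 668 against 0.0753, 0 and 0.0124 TPM (9.63). Fabp4, a fatty acid carrier of macrophages, fat cells and endothelium, was at 431, 237 and 302 against 0.0929, 0.427 and 0 TPM (8.08). The lower pair was Spn and Itgal, named after their values were seen. Spn, which encodes CD43, was at 2.97, 3.78 and 3.37 against 49.8, 38.8 and 43.9 TPM.

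All 26 genes of the tissue macrophage list were at least 4-fold higher, against 7.64% of all genes, with a median log2 fold change of 6.68. C1qb, a chain of the complement starter C1q, was at 4849, 5917 and 5848 against 1.74, 1.85 and 1.75 TPM (10.95, adjusted p = 3.79e-14). Apoe, the lipid carrier apolipoprotein E, was at 8092, 8265 and 12921 against 86.8, 76.9 and 71.8 TPM. Pltp, a phospholipid transfer protein, was at 1070, 1348 and 1287 against 0, 0.0213 and 0.0571 TPM. Set beside CCR2-low macrophages, 3 of the 26 were higher and 15 lower in CCR2-high libraries, where 8.93% of all genes were higher and 8.74% lower. The summed TPM of the list was 26025, 30914 and 32249 in CCR2-high and 42300 to 47214 in CCR2-low libraries.

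Some resident macrophage genes were listed at 0 in all 3 labelled monocyte libraries. There were 58 genes at 0 there with a mean of at least 10 TPM in the CCR2-high libraries. The most abundant, named after their values were seen, was Folr2, a folate receptor of resident macrophages, at 691, 1010 and 606 TPM. Next were 3 chemokine genes: Ccl8 at 539, 426 and 879 TPM, Ccl7 at 391, 513 and 531 TPM and Ccl12 at 352, 543 and 499 TPM. Lyve1, a hyaluronan receptor, was at 104, 206 and 102 TPM, with CCR2-low libraries at 808, 409 and 698 TPM. In the other direction 12 genes were at 0 in the CCR2-high libraries with a mean of at least 10 TPM in the labelled monocytes, among them Ms4a3, Mcpt8, Epx and Muc13.

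Retnla, which encodes the secreted protein RELM-alpha of alternatively activated macrophages, was among the 10 most abundant transcripts of the CCR2-high libraries. It was at 10789, 20209 and 21369 TPM there, and replicate 1 was lower than the others. In the labelled monocytes it was at 0, 0 and 0.0816 TPM. CCR2-low libraries averaged 35005 TPM.

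Transcription factors of macrophages were mostly higher. Of 32 tested 27 were higher, 20 of them at least 4-fold, and 4 lower, 2 of them at least 4-fold, against 26.5% and 7.64% of all genes higher and 51.3% and 7.2% lower. Egr2 was at 138, 142 and 149 against 0.087, 0.176 and 0.0718 TPM (log2 fold change 7.02). Klf6 was at 470, 501 and 464 against 19, 15.2 and 14.8 TPM (4.80), and Cebpb, a factor of inflammatory genes, at 574, 471 and 630 against 142, 139 and 158 TPM (1.91). The groups did not overlap for any of these, nor for 80% of all genes.

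Chemokine ligands were higher as a group. Of 24 listed 23 were tested, all were higher and 22 at least 4-fold, against 7.64% of all genes, with a median log2 fold change of 6.93. Cxcl2, which draws neutrophils through CXCR2, was at 4688, 4540 and 4490 against 4.49, 2.69 and 2.41 TPM (10.12, adjusted p = 3.99e-12). Ccl2, a ligand of CCR2, was at 539, 799 and 755 against 0.26, 0.287 and 0.514 TPM (adjusted p = 3.51e-12). Ccl4, an attractant of monocytes and T cells, was at 2822, 2200 and 2634 against 13.1, 9.07 and 10.3 TPM (7.76), and 462 TPM on average in CCR2-low libraries. Pf4, made by macrophages and platelets, was at 3417, 4543 and 2865 against 30.9, 56.9 and 49.7 TPM (6.29).

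Receptors of attractants were higher in 14 of 16 cases, and each of those was at least 4-fold higher, against 7.64% of all genes. C5ar1, the receptor of the complement fragment C5a, was at 611, 833 and 647 against 0.829, 0.975 and 0.702 TPM (log2 fold change 8.56). Its relative C3ar1 was at 387, 424 and 341 against 0.385, 0 and 0.113 TPM (8.37). The lower one was Cxcr2, the neutrophil chemokine receptor, at 0.0407, 0.0317 and 0.273 against 7.3, 5.41 and 6.19 TPM (-2.71), and Cxcr4 (60.8, 57.2 and 64.5 against 69.7, 55.2 and 62.5 TPM) was not called as deposited. With TMM scaling 15 of the 16 were higher and 1 lower, beside 5470 and 6161 of all 15467 genes.

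Inflammatory cytokine genes followed. Of 27 tested 22 were higher, 15 of them at least 4-fold, 4 lower and 1 not called, with a median of 2.39, against 26.5% of all genes higher and 7.64% at 4-fold. Il1b, interleukin 1 beta, was at 1063, 732 and 1240 against 0.434, 0 and 0.307 TPM (log2 fold change 9.65, adjusted p = 2.26e-10), with 197 TPM on average in CCR2-low libraries. Tnf was at 813, 656 and 687 against 6.21, 3.29 and 3.66 TPM (7.09), and Il6 at 373, 308 and 424 against 3.7, 3.21 and 2.02 TPM (6.55). Igf1, a growth factor of tissue macrophages, was at 67.3, 64.6 and 61.2 against 0.00597, 0.0275 and 0.0542 TPM (5.99). The gene lower by at least 4-fold was Il12a, a chain of interleukin-12, named after its values were seen. It was at 0.12, 0 and 0.223 against 25.6, 25.7 and 27.5 TPM (-4.62).

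Immediate early genes, which cells switch on within minutes of stimulation or tissue dissociation, were all higher. Each of the 24 tested was called and 23 were at least 4-fold higher, against 7.64% of all genes, with a median of 4.89. Atf3, a stress-induced repressor, was at 890, 946 and 917 against 0.119, 0.0823 and 0.0492 TPM (log2 fold change 9.73, adjusted p = 3.79e-14). Junb was at 3025, 3328 and 3455 against 71.2, 59.4 and 54.6 TPM (5.71), and Fos at 2017, 2329 and 2090 against 81.6, 66.1 and 61.1 TPM (4.93). Zfp36, which destabilises cytokine messages, was at 3110, 3511 and 3334 against 74.7, 60.8 and 52.1 TPM (5.72). The summed TPM of the list was 18247 to 20129 in CCR2-high, 17672 to 19618 in CCR2-low and 610 to 785 in labelled monocyte libraries. By their labels the macrophages came from fat and the other cells from blood, a label the markers above go against, and the part of handling in these values was not tested.

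Genes of the NF-kB pathway, which relays signals of cytokine and pattern receptors, showed the same direction in most cases. Of 21 tested 18 were higher, 15 of them at least 4-fold (7.64% of all genes), and 2 lower, with a median of 3.72. The lower pair, Nfkb1 and Tnip1, had log2 fold changes of -0.61 and -0.68 and were not called with TMM scaling. There 19 genes were higher and none lower, beside 5470 and 6161 of all 15467 genes. Promoters of Cxcl2 and Nfkbia, which encodes the inhibitor I-kappa-B alpha, are shown because both are known NF-kB targets. The search was for GGGA and CC with any 4 bases between them, on both strands, chosen with sequences in view. It was found in 3 of 4 genes with an entry, of 5 looked up, and in 6810 of the 32851 windows (20.7%). The only match of Tnf, which is not printed, lay after the annotated start. A match is again a description of letters and not a site. Icam1, an adhesion molecule, held none. Capitals mark the matches. They overlap 97 and 96 bases before the start in Cxcl2 (chr5:90903649-90903948, plus strand) and lie 212 and 29 bases before it in Nfkbia (chr12:55492598-55492897, minus strand).
Cxcl2: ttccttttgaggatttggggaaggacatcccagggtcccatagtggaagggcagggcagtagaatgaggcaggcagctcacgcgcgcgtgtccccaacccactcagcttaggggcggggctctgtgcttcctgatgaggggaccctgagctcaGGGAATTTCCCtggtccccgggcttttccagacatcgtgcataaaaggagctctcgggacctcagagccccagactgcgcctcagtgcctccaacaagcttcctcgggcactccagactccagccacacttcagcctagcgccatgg
Nfkbia: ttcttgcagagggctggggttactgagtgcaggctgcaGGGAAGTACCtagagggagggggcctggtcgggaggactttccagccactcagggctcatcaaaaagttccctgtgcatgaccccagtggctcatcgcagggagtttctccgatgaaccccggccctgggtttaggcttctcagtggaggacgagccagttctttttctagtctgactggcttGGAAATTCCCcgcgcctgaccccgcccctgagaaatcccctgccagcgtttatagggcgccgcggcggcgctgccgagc

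Nfkbia was at 1882, 1724 and 1815 TPM in the CCR2-high libraries and at 76.3, 63.2 and 66.5 TPM in the labelled monocytes (log2 fold change 4.70, adjusted p = 1.19e-11). Icam1 was at 381, 407 and 428 against 16, 13.4 and 13.1 TPM (4.75). Nfkbiz, an atypical I-kappa-B that serves as a co-activator, was at 598, 595 and 567 against 3.36, 2.18 and 2.2 TPM (7.38). Bcl2a1d, a survival gene, was at 924, 759 and 1144 against 1.63, 1.64 and 1.41 TPM (8.51), and its reads may be shared with near-identical Bcl2a1 copies.

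Pattern and Fc receptor genes were all higher. Of 24 listed 23 were tested and each was higher, 20 of them at least 4-fold, against 26.5% and 7.64% of all genes, with a median of 3.32. Fcgr1, the high-affinity IgG receptor, was at 69.7, 70.3 and 69 against 0.571, 0.652 and 0.791 TPM (log2 fold change 5.40). Tlr7, a sensor of single-stranded RNA, was at 68.8, 69.9 and 61.6 against 0.58, 0.373 and 0.574 TPM (5.49). Clec4n, the lectin receptor dectin-2, was at 89.2, 67.2 and 96.6 TPM and listed at 0 in the labelled monocytes. Tyrobp, the signalling adaptor shared by many of these receptors, differed less, at 3014, 2583 and 2812 against 910, 946 and 1069 TPM (1.52).

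Interferon-stimulated genes were higher in 23 of the 24 tested, 15 of them at least 4-fold, against 26.5% and 7.64% of all genes. Isg15, a ubiquitin-like protein, was at 139, 146 and 214 against 3.36, 5.4 and 5.48 TPM (log2 fold change 4.86). The DNA sensor gene Ifi204 was at 127, 155 and 146 against 8.64, 8.51 and 8.68 TPM (3.90). Bst2, the tether that retains viruses at the surface, was at 146, 196 and 220 against 123, 133 and 132 TPM (0.51, adjusted p = 0.00922). Gbp5, at 13.1, 14.9 and 24.3 against 12.6, 7.93 and 10.3 TPM, was not called as deposited (adjusted p = 0.065, limma). After TMM scaling all 24 genes were higher, beside 5470 of all 15467 genes.

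Complement genes were higher in 15 of 19 tested, 11 of them at least 4-fold, with 1 lower, against 26.5% and 7.64% of all genes higher. C1qa was at 2468, 3342 and 3152 against 0.853, 1.83 and 0.985 TPM (log2 fold change 10.41), and C1qc at 1840, 2428 and 2200 against 0.368, 1.18 and 0.657 TPM (10.30). C1qa averaged 4081 TPM in CCR2-low libraries. Relative to CCR2-low, 10 complement genes were lower in CCR2-high libraries and 1 higher, where 8.74% of all genes were lower and 8.93% higher. C5 and Cd46 were among the 21 listed genes without a test. With TMM scaling 16 complement genes were higher and none lower, beside 5470 and 6161 of all 15467 genes.

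Scavenger and lipid genes were higher in 25 of 28 tested, 19 of them at least 4-fold, with 2 lower, against the same shares of all genes. Mrc1, the mannose receptor CD206, was at 432, 596 and 500 against 0.706, 1.12 and 0.582 TPM (log2 fold change 8.15). Msr1, the class A scavenger receptor, was at 131, 128 and 96.4 against 0.281, 0.245 and 0.415 TPM (6.50). Lgals3, galectin-3, was at 1089, 584 and 660 against 48.4, 45.1 and 56.5 TPM (3.88), with replicate 1 the highest. Lysosome genes were higher in 27 of 30 tested, and 14 reached 4-fold, against 26.5% and 7.64% of all genes. After TMM scaling 29 were higher and none lower, beside 5470 higher and 6161 lower of all 15467 genes. Lgmn, the asparagine-specific protease legumain, was at 849, 763 and 691 against 2.7, 3 and 2.25 TPM (7.72). Ctsd, cathepsin D, was at 1704, 981 and 1311 against 299, 242 and 273 TPM (2.26).

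Genes of the haem synthesis and iron list moved in both directions. Of the 17 genes 6 were higher and 8 lower, beside 26.5% and 51.3% of all genes. After TMM scaling 9 were higher and 6 lower, beside 5470 and 6161 of all 15467 genes. At least 4-fold higher were 6 and lower 1, against 7.64% and 7.2% of all genes. Hmox1, the enzyme that breaks haem, was at 732, 595 and 469 against 3.75, 4.43 and 4.81 TPM (log2 fold change 6.80, adjusted p = 3.19e-11). Slc11a1, the phagosomal metal transporter NRAMP1, was at 242, 222 and 208 against 1.12, 0.589 and 0.554 TPM (7.02). The ferritin chains Ftl1 (10688, 8895 and 8737 against 1783, 1748 and 1891 TPM) and Fth1 (7606, 6581 and 7332 against 1229, 1372 and 1273 TPM) were higher too, by 2.38 and 2.47. Alas1, the first enzyme of haem synthesis, named after its values were seen, was at 42.3, 34.1 and 37.6 against 317, 253 and 308 TPM (-2.91).

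Cholesterol synthesis showed no common direction. Of 22 genes 6 were higher, 7 lower and 9 not called, where 26.5% of all genes were higher and 51.3% lower. The median was 0.08, and with TMM scaling 12 genes were higher and 3 lower (median 0.46). Of all 15467 genes 5470 were then higher and 6161 lower, with a median of -0.07. Fdps, which makes farnesyl diphosphate, was at 56.6, 46.1 and 43.2 against 225, 215 and 230 TPM (log2 fold change -2.18). Insig1, the sterol sensor that holds back this pathway, was at 123, 128 and 119 against 22.7, 19.4 and 19.5 TPM (2.53). Ebp was lower by -0.32 as deposited and at 0.08 with TMM scaling, and it was not called without labelled monocyte replicate 3 (adjusted p = 0.05). Of 20 integrin and adhesion genes 13 were higher (26.5% of all genes) and 5 lower. Itgb5, which pairs with integrin alpha V, was at 120, 116 and 112 against 15.2, 9.6 and 10.9 TPM (3.20), and Selplg, a selectin ligand, at 237, 245 and 216 against 431, 325 and 348 TPM (-0.65, and -0.24 with adjusted p = 0.0742 after TMM scaling).

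**Figure D5:**
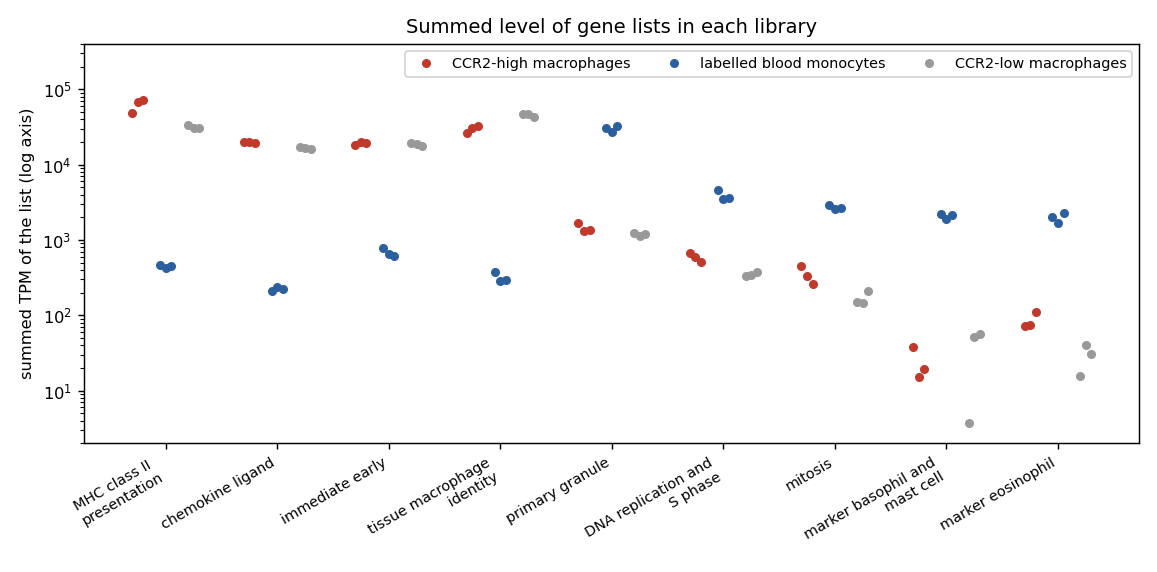
Summed TPM of 9 gene lists in each of the 9 steady-state libraries, on a log axis; each point is a library. Class II, chemokine, immediate early and macrophage sums were higher in CCR2-high macrophages, and granule, replication, mitosis, basophil and eosinophil sums higher in the labelled monocytes.

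Markers of other cells were read for both groups. Basophil and mast cell markers had a summed TPM of 1870 to 2219 in the labelled monocytes and 15.3 to 38.4 in the CCR2-high libraries. Of the 11 markers 9 were lower in CCR2-high libraries, against 51.3% of all genes, and 2 were higher. The higher pair, the mast cell proteases Tpsb2 (14.7, 5.43 and 7.15 against 0, 0.655 and 0 TPM) and Mcpt4 (8.54, 3.55 and 3.27 against 0, 0.11 and 0 TPM), was named after the values were seen. Prss34, a basophil protease, was at 1.56, 0.475 and 0 against 1042, 808 and 963 TPM, and Mcpt8, another, at 466, 488 and 584 TPM in the labelled monocytes and listed at 0 in CCR2-high. Eosinophil markers summed to 1660 to 2299 against 71.4 to 111 TPM. Of 6 tested, 4 were lower in CCR2-high libraries, against 51.3% of all genes, 1 was higher and 1 not called. The gene not called was Ear1, at 64, 66.4 and 107 TPM in CCR2-high libraries, most of their sum. It was at 77.6, 71.5 and 79.7 TPM in the labelled monocytes. Prg2, eosinophil major basic protein, was at 0, 0.0574 and 0 TPM in CCR2-high and at 1624, 1380 and 1965 TPM in the labelled monocytes, where Epx, eosinophil peroxidase, was at 225, 144 and 178 TPM. Neutrophil markers summed to 620 to 907 against 72.8 to 93.2 TPM, with 9 of 11 lower in CCR2-high libraries, against the same share of all genes, and Ly6g at 0 there. The other 2, Retnlg and Il1r2, were higher, with log2 fold changes of 1.26 and 1.57. The sums of these marker lists move with the granule and progenitor genes, and their part in those results was not tested.

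Lymphocyte markers were low in both groups apart from single genes. Nkg7, a granule membrane protein of cytotoxic cells, was at 2.44, 2.9 and 3.53 against 782, 809 and 974 TPM (log2 fold change -7.76). The T and NK cell list summed to 32.7 to 49.2 TPM in CCR2-high and 789 to 980 TPM in labelled monocyte libraries, nearly all of it Nkg7, and Cd8a, Ncr1 and Gzma were at 0 in the latter. B cell markers summed to 486 to 638 against 448 to 522 TPM, mostly Ighm (454, 514 and 397 against 420, 357 and 377 TPM), which was not called (adjusted p = 0.221) and was called with TMM scaling (0.65, adjusted p = 0.00469). Of 7 tested B cell markers 4 were higher and 1 lower, against 26.5% and 51.3% of all genes. With TMM scaling 6 were higher and none lower, beside 5470 and 6161 of all 15467 genes. The lower one, Cd79b (35.8, 28.4 and 39.3 against 47.1, 47.4 and 50.3 TPM, adjusted p = 0.0368), was not called with TMM scaling (0.735), without a filter (0.0889), with a replicate block (0.0599), without CCR2-high replicate 1 or 2 (0.0588 and 0.138) or without labelled monocyte replicate 1, 2 or 3 (0.0641, 0.0656 and 0.0892). Of 8 tested T and NK cell markers 5 were higher and 2 lower, beside the same shares of all genes. Ms4a1, the B cell protein CD20, was at 5.79, 6.27 and 4.5 against 0.201, 0.291 and 0.427 TPM.

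Dendritic cell markers summed to 376 to 550 against 145 to 153 TPM. Of 11 tested, 9 were higher and 1 lower, against 26.5% and 51.3% of all genes. Cd209a was at 111, 191 and 95.2 against 0, 0 and 0.0986 TPM, and Batf3 at 62.7, 91.3 and 104 against 0.582, 0.535 and 0.206 TPM. These genes move with the class II genes, and their part in that result was not tested. Flt3, which conventional dendritic cells and progenitors share, was the lower one, at 0.946, 1.04 and 1.5 against 10.6, 11.1 and 6.18 TPM.

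Fat and stromal transcripts were present in the macrophage libraries at low levels. Fibroblast markers summed to 195 to 260 against 10.4 to 14 TPM, endothelial markers to 270 to 474 against 32.4 to 40.8 TPM, and adipocyte markers to 99.6 to 115 against 76.2 to 101 TPM. Of the tested markers, 6 of 8 for fibroblasts, 5 of 10 for endothelium and 5 of 7 for adipocytes were higher, and 0, 2 and 1 lower. Of all genes 26.5% were higher and 51.3% lower. Gsn, gelsolin, which macrophages also express, made up 233, 174 and 169 TPM of the first sum, and Fabp4 431, 237 and 302 TPM of the second. Pnpla2 made up 54.2, 46 and 51 TPM of the adipocyte sum, and 89.4, 66.5 and 71.7 TPM of it in the labelled monocytes. It was called lower in CCR2-high libraries as deposited and was not called with TMM scaling. Dcn, decorin of fibroblasts, was at 5.95, 4.02 and 13.9 TPM, and Cidec, a lipid droplet protein of fat cells, at 3.98, 8.17 and 4.57 TPM. Plin1, Cidec and Lep were at 0 in the labelled monocytes, and Plin1 and Lep were too low to be tested. The summed levels of fibroblast and endothelial markers move with the group, and their part in the results was not tested. Of 11 erythroid and megakaryocyte markers 5 were higher and 5 lower, beside the same shares of all genes. Haemoglobin transcripts were among the higher ones, with Hba-a1 at 208, 366 and 288 against 39.5, 45.7 and 37.2 TPM. Of 6 mesothelial markers 2 were higher, 1 lower and 3 not called, beside the same shares of all genes. Slpi (194, 104 and 61.2 against 234, 237 and 283 TPM) was called lower (adjusted p = 0.0188) but not with TMM scaling (adjusted p = 0.12), without CCR2-high replicate 3 (0.0788) or without labelled monocyte replicate 3 (0.0519).

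The remaining genes that belong to the largest changes by the rule for named genes were both lower in CCR2-high libraries. Gpr97 (Adgrg3), an adhesion receptor of granulocytes, was at 0.355, 0.0395 and 0.0538 against 230, 183 and 190 TPM, a log2 fold change of -7.46 (adjusted p = 1.33e-11). Phgdh, the first enzyme of serine synthesis, was at 1.23, 1.97 and 2.07 against 399, 338 and 350 TPM, a log2 fold change of -7.05 (adjusted p = 2.82e-11). Neither overlapped between the groups, which the rule required and which held for 80% of all genes. Between CCR2-high and CCR2-low libraries neither differed at the threshold (adjusted p = 0.638 and 0.393, limma).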

How the data were processed

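Sorted cells gave RNA through a PicoPure kit, and Illumina libraries were sequenced, per the labels' protocols. The authors deposited a table of linear TPM per gene and library, per the file headers. The submitters' processing notes name the build mm10, while no source used here gives the aligner, the quantifier, the read counts or the strandedness. The authors' own fold changes and adjusted p-values were not used. The 3 groups of 3 steady-state libraries were fitted together with limma 3.58.1 in R 4.3.3 (empirical Bayes with an intensity trend, two-sided), with pseudocount 1. TMM was applied to TPM, trimming 30% of ratios and 5% of levels. Of 28347 genes, 27754 matched GENCODE M21 for coordinates, and 26 symbols had been turned into dates in the table. On simulated data with 200 changed genes, 3, 82.5 and 97% were recovered at log2 changes of 0.5, 1 and 2, with 0, 6.8 and 4.9% of calls false. The changed genes were drawn from 15467, among those with a mean log2(TPM + 1) above 2, with independent normal noise. In the data 77.8% of genes were called, so these rates do not describe the comparison itself.

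The comparison, the lists and the named genes were chosen with earlier results of these data known. Named were the 4 given markers and Cx3cr1. The rule also took, in each direction, the 8 largest log2 fold changes among called genes with a mean of at least 10 TPM in the higher group, values above 0 in every library and no overlap, leaving out unnamed models and receptor segments. All members of 5 lists followed, with up to 3 members by level and up to 3 by p of each other list, and the 10 most abundant genes of each group. The text gives part of these. Alternatives were TMM, pseudocounts 0.1 and 5, no filter, a mean of at least 5 TPM, robust moderation, only the 6 libraries, a replicate block and leaving out each library. Gene lengths came from other deposited lists, which pair genes with lengths in bases, a unit of its own, and served for the value of 1 read.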

Additional observations from a re-analysis of the deposited data

How the results depend on the processing

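The 12038 calls became 11631 with TMM, 12077 and 11880 with pseudocounts 0.1 and 5, 13090 without a filter, 8988 at a mean of at least 5 TPM and 11593 with only the 6 libraries. Leaving out each library gave 10924 to 11595. The 2295 calls past 4-fold became 3732 with pseudocount 0.1 and 1211 with pseudocount 5, because the pseudocount sets the fold change of low genes, and 2114 to 2364 when each library was left out. The 2733 calls of CCR2-high against CCR2-low became 3085 with TMM, 2743 with only the 6 libraries and 1481 to 2424 when each library was left out. The replicate numbers did not pair the libraries. Correlations of deviations were -0.11 to 0.03 between CCR2-high and labelled monocyte libraries of one number, 0 of 3 correlated best with their own number, and a replicate block gave 11648, 2294 and 1795 calls in the same order.

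Of 3260 values for 239 named genes under alternatives, 3182 kept direction and side of the threshold, 62 lost and 7 gained the call, and 9 changed sign, in 26 genes. The sign changes came with TMM, which gave log2 fold changes of 0.02 for Igsf6, 0.38 for Cd93, 0.08 for Ebp, 0.04 for mt-Atp6, 0.05 for Rps29 and 0.31 for Lipe. The others were the unnamed models Gm23935 (0.09), Gm24270 (0.10) and Gm24187 (0.08). No source used here gives the read depth, and at under about 0.1 TPM a value rests on a few reads, so Mpo or Cd83 at such levels cannot be told from absence.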

Other observations

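Histone genes were a large group among the transcripts lower in CCR2-high libraries, and they were read after the values were seen. Of 61 tested genes whose symbols begin with Hist1 to Hist4, 56 were lower, 3 higher and 2 not called, and 45 were at least 4-fold lower, against 51.3% and 7.2% of all genes, with a median log2 fold change of -2.65. Their summed TPM was 760, 541 and 502 in the CCR2-high libraries, 489 to 624 in the CCR2-low libraries and 8327, 10854 and 12656 in the labelled monocytes. Replication-dependent histones package new DNA in S phase and their transcripts lack a poly(A) tail, as background. Unlike the sum of the S phase list, which was 4552, 3502 and 3571 TPM, the histone sum was lowest in labelled monocyte replicate 1. On chromosome 13, which carries the main histone cluster, 40 of 47 histone genes and 38 of 546 other tested genes (6.96%) were at least 4-fold lower. Copies are near-identical, so the values of single histone genes are uncertain.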
